A study of Mus musculus with 6 samples.

Results

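The core circadian clock genes were described in MLO-Y4 cells, an immortalized mouse long-bone line used as a model of osteocytes, the cells that sense load inside bone. The group holds 10 genes named by symbol: the activators Arntl and Clock, the repressors Per1, Per2, Per3, Cry1 and Cry2, the nuclear receptors Nr1d1 and Nr1d2, and the output factor Dbp. Each matched 1 row among the 39174 genes of the table tested, and all 10 passed its filter of a mean of at least 1 FPKM, which kept 11957 genes. FPKM is a level per length of transcript and per depth of library. RNA was sequenced from 3 flow and 3 non-flow control cultures. Flow cultures received 2 h of oscillating fluid shear at 10 dyn/cm² and were lysed 2 h later, after incubation in new medium. Controls were sham-treated alongside. All cultures had been seeded on collagen-coated glass 48 h before flow and were about 60% confluent, in medium with serum throughout. Replicates came from separate days, and neither the hour of collection nor any synchronization of the cells is given in the sources used here.

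The mammalian clock is a loop of transcription and repression. CLOCK and BMAL1, the protein of Arntl, bind E-box elements and switch on Per, Cry, Nr1d and Dbp genes. PER and CRY proteins then repress that activity, while the NR1D receptors (REV-ERB) repress Arntl through a separate element that ROR receptors activate. Dbp and its relatives act on D-box elements. Most peripheral tissues, bone included, carry such clocks, and in culture a change of serum or hormones is known to shift them through fast induction of Per1 and Per2.

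Letters of these elements can be read in the promoters of several members, and the matches are shown because the loop described above acts through such elements. Binding at them was not tested. Windows of 300 bases, 250 before and 50 after a RefSeq start (GRCm38.p6), were at hand for 9 of the 10 genes, Per2 being the exception. Both strands were searched for CACGTG (E-box), CACGTT (its weaker E' variant), TTATGTAA or TTACGTAA (D-box), TAGGTCA (core of the REV-ERB and ROR element) and TGACGTCA (CRE, bound by CREB). No motif overlapped another in a member. The matches follow 5′ to 3′ on the strand of the gene, with the motif in capitals; the E' variant reads AACGTG there.
Per1 E-box (chr11:69098773-69098798): cacccaagtcCACGTGcagggatgtg
Cry1 E-box (chr10:85185099-85185124): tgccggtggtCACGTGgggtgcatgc
Cry1 E' box (chr10:85185118-85185143): acacttcagaAACGTGaggtgccggt
Cry2 E' box (chr2:92434220-92434245): acatggtgggAACGTGagggggcgga
Nr1d1 E' box (chr11:98775390-98775415): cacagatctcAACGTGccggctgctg
Per3 D-box, distal (chr4:151044853-151044880): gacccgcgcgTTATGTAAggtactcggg
Per3 D-box, proximal (chr4:151044806-151044833): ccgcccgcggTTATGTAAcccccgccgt
Arntl REV-ERB/ROR core (chr7:113207531-113207557): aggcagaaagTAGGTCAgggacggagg

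The Per1 E-box began 166 bases upstream of a start that lies inside the gene, which begins at 69095217 in the GENCODE annotation. The Cry1 E-box began 60 bases upstream of its start. Among all 32851 windows, 7.15% held an E-box, 4.69% the E' variant, 1.06% a D-box, 2.61% the REV-ERB/ROR core and 1.79% a CRE. Counted over the 27025 genes with a window, the shares were 8.09%, 5.44%, 1.23%, 2.97% and 2.03% in the same order. Clock had 3 windows, and Arntl and Per1 had 2 each. The Per3 window held 2 D-boxes, and the Arntl core began 30 bases after a start. The windows of Clock, Nr1d2 and Dbp held none of these letters, and no member had a CRE in its window. A match describes these letters and this window only.

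The libraries differed in depth. Estimated from the spacing of low FPKM values, it was 17910000 to 19010000 reads in the controls, and 11020000, 5760000 and 19230000 in flow libraries 1 to 3. On the longest transcript of each member, that came to between 10 and 62 reads per library for Dbp and at least 44 for each of the others. Of the osteocyte markers, Gja1 and Pdpn were abundant (357 to 503 FPKM over both genes), Phex was at 4.06 to 7.46 FPKM, Dmp1 at 0.0354 FPKM or less, and Sost, Mepe and Fgf23 were listed at 0 in all 6 libraries. Defining markers of endothelium were at 0.152 FPKM or less in sum. The macrophage list summed to 1.44 to 3.33 FPKM in controls and 1.92 to 2.77 in flow, nearly all of it Cd68, with Ptprc and Adgre1 at or near 0. Osteoblast markers summed to 271.2 to 316.2 FPKM in controls and 208.8 to 275.5 in flow. Nearly all of this came from the collagen genes Col1a1 and Col1a2, and the other markers were each at 9.95 FPKM or less. All 5 osteoblast markers tested had a negative difference of flow from control in log2(FPKM + 1), and none was called. The collagen gene Col1a2 had every flow value below every control (-0.26), and Col1a1 (-0.23), Alpl (-0.77) and Bglap (-0.26) had overlapping groups (limma, adjusted p of 0.559 to 0.62). Of the muscle and adipocyte lists, only Acta1 (6.06 to 13.6 FPKM, difference -0.58, adjusted p = 0.559) and Fabp4 (3.81 to 4.35 FPKM, difference -0.03) passed the filter. The part of these markers in the differences of clock genes was not tested.

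All 10 clock genes were detected in all 6 libraries. Cry1, a strong repressor of CLOCK and BMAL1, had the highest level, at 25.1 to 30.4 FPKM over the 6 libraries (mean 28.0). Nr1d2 (mean 16.7 FPKM) and Clock (14.6) followed; their ranges overlapped, with Nr1d2 higher in 5 of 6 libraries. Per1 (8.80), Arntl (7.56) and Nr1d1 (7.43) formed a middle group with overlapping ranges. Cry2 followed at 2.30 to 4.19 FPKM, under all values of Nr1d1 and just above all values of Per3, though not of Per2 (up to 2.34 FPKM). Per3 (1.71), Per2 (1.63) and Dbp (1.33) were lowest and overlapped each other.

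**Figure D1:**
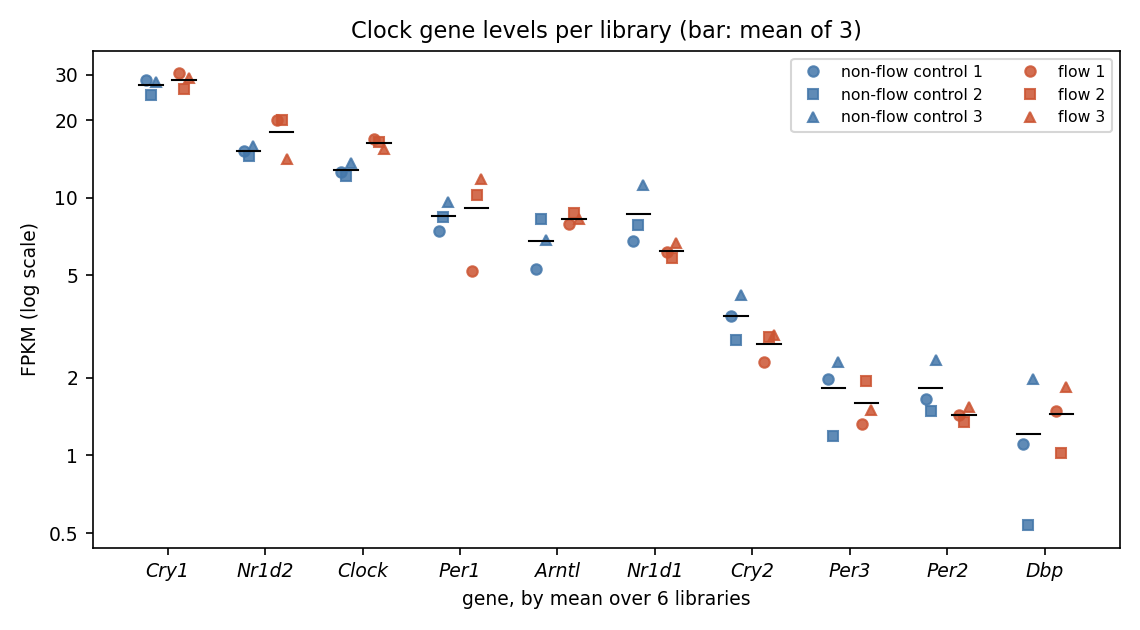
FPKM of the 10 clock genes (log axis) in each of the 3 non-flow control and 3 flow libraries, ordered by mean; symbols mark the library number and bars the mean of 3. Cry1 lay at 25.1 to 30.4 FPKM in every library, and only Clock and Nr1d1 had flow values wholly above or wholly below the controls.

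No clock gene passed the test between flow and control. With limma and Benjamini-Hochberg adjustment over all 11957 genes, 0 of 10 members had an adjusted p under 0.05, against a background of 0.0167% of genes called (2 genes). At an unadjusted p under 0.05, limma marked 1 member, Clock, against 8.52% of all genes. Differences are given as the flow mean less the control mean of log2(FPKM + 1), a scale that compresses the fold of low genes such as Dbp. Of the 10, 6 had a positive difference, and their median was 0.05, against -0.01 and 48.3% positive over all genes tested. In whole cultures, fewer cells expressing a gene and less RNA per cell cannot be told apart. The labels do not say which flow and control cultures share a day, so they were compared without pairs.

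Among the activators, Clock, which encodes the partner of BMAL1, was at 12.6, 12.1 and 13.7 FPKM in non-flow controls 1 to 3 against 16.99, 16.5 and 15.54 FPKM in flow libraries 1 to 3. Every flow value lay above every control value. The means were 12.8 ± 0.788 and 16.4 ± 0.742 FPKM (SD, n = 3), a difference of 0.33 with SE 0.095 and a 95% interval of 0.098 to 0.56 (limma, adjusted p = 0.559). Over all genes tested, 7.12% had flow values wholly above the controls. The other deposited table, made at lower depth, carries titles of the same libraries apart from flow columns that match no title. It is therefore no independent set of cultures. Clock had no overlap between groups there either, at 11.6 to 12.6 FPKM in controls and 14.4 to 15.6 in flow. The difference was 0.29 (limma, adjusted p = 0.751). Arntl was at 5.30, 8.27 and 6.88 FPKM in the controls against 7.91, 8.73 and 8.26 under flow. Its groups overlapped through control 2, and the difference was 0.27 with SE 0.16 (95% interval -0.13 to 0.66, adjusted p = 0.581). Without control 1, the lowest library, it was 0.12, and the other table gave 0.11. The 3 flow values of Arntl lay close together: their SD was at the 7.09 percentile of 2243 genes of like level, and its control SD at the 78.7 percentile.

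The Per genes, whose proteins are the rate-setting repressors, had no common direction. Per1 was at 7.44, 8.43 and 9.66 FPKM in the controls against 5.20, 10.2 and 11.9 under flow. Flow library 1 was the lowest of the 6 and flow library 3 the highest, so the flow group enclosed the controls. The difference was 0.03 with SE 0.29, and its 95% interval of -0.67 to 0.72 leaves room for changes in either direction. In flow, the SD of Per1 exceeded that of 91.6% of 2331 genes of like level. The direction was not shared by the other deposited table. Per1 ranged there from 8.19 to 11.1 FPKM in the controls and from 6.50 to 8.10 under flow. The difference was -0.34 with no overlap (limma, adjusted p = 0.751), though the lowest control was only just above the highest flow value. The highest control, control 1 of that table, rested on 34 reads. There 2 of 10 members, Clock and Per1, had groups without overlap, against 12.6% of all genes in that table. Per2 was at 1.65, 1.49 and 2.34 FPKM in the controls against 1.43, 1.35 and 1.54 under flow. Only control 2 fell among the flow values, and the difference was -0.20 with SE 0.20 (adjusted p = 0.676). Without control 3 it was -0.075. Per3, a PER protein less central to the loop, was at 1.98, 1.19 and 2.30 FPKM in the controls against 1.33, 1.95 and 1.51 under flow, with full overlap and a difference of -0.11 with SE 0.23.

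Of the cryptochromes, Cry1, the most abundant member, differed little between libraries. Controls had 28.8, 25.1 and 28.2 FPKM and flow libraries 30.4, 26.5 and 29.2. The groups overlapped, and the difference of 0.07 had a 95% interval of -0.18 to 0.31. Cry2, the second cryptochrome repressor, was at 3.47, 2.81 and 4.19 FPKM in the controls against 2.30, 2.89 and 2.93 under flow. Control 2 lay among the flow values, and the difference was -0.27 with SE 0.18 (limma, adjusted p = 0.599). Without control 3 it was -0.16. In the other table its difference had the opposite sign, 0.11. Control 1 of that table, its shallowest library, had Cry2 at 1.93 FPKM on 5 reads.

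The 2 REV-ERB genes pointed in different directions. Nr1d1 was at 6.81, 7.87 and 11.2 FPKM in the controls against 6.18, 5.83 and 6.67 under flow. All 3 flow values lay below all 3 controls, though control 1 was only just above flow library 3; 8.00% of all genes had flow values wholly below the controls. The means were 8.63 ± 2.30 and 6.23 ± 0.422 FPKM (SD, n = 3), a difference of -0.39 with SE 0.18 and a 95% interval of -0.84 to 0.058 (limma, adjusted p = 0.559). Control 3 carried much of it: without that library the difference was -0.21. In the other table Nr1d1 overlapped between groups (difference -0.24). Nr1d2 was at 15.3, 14.5 and 16.0 FPKM in the controls against 20.1, 20.1 and 14.1 under flow. Flow libraries 1 and 2 stood above every control and flow library 3 below every control. The difference was 0.22 (adjusted p = 0.618), without flow library 3 it was 0.38, and with that library as the only flow sample it was -0.11. Taken as a count, 2 of 10 members, Clock and Nr1d1, had groups that did not overlap, against 15.1% of all genes tested, so the members' share lay near the background.

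Dbp, a D-box activator whose RNA swings widely over the day in many tissues, was the lowest member. It was at 1.11, 0.536 and 1.99 FPKM in the controls against 1.49, 1.03 and 1.84 under flow, and the groups overlapped. Its difference was 0.19 with SE 0.31 and a 95% interval of -0.56 to 0.93. Control 2 was the lowest library and control 3 the highest, and the control SD exceeded that of 87.6% of 1007 genes of like level. Without control 2 the difference was -0.05. Against a level of 3 reads of at most 0.318 FPKM, its lowest value was above the floor but rested on few reads.

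**Figure D2:**
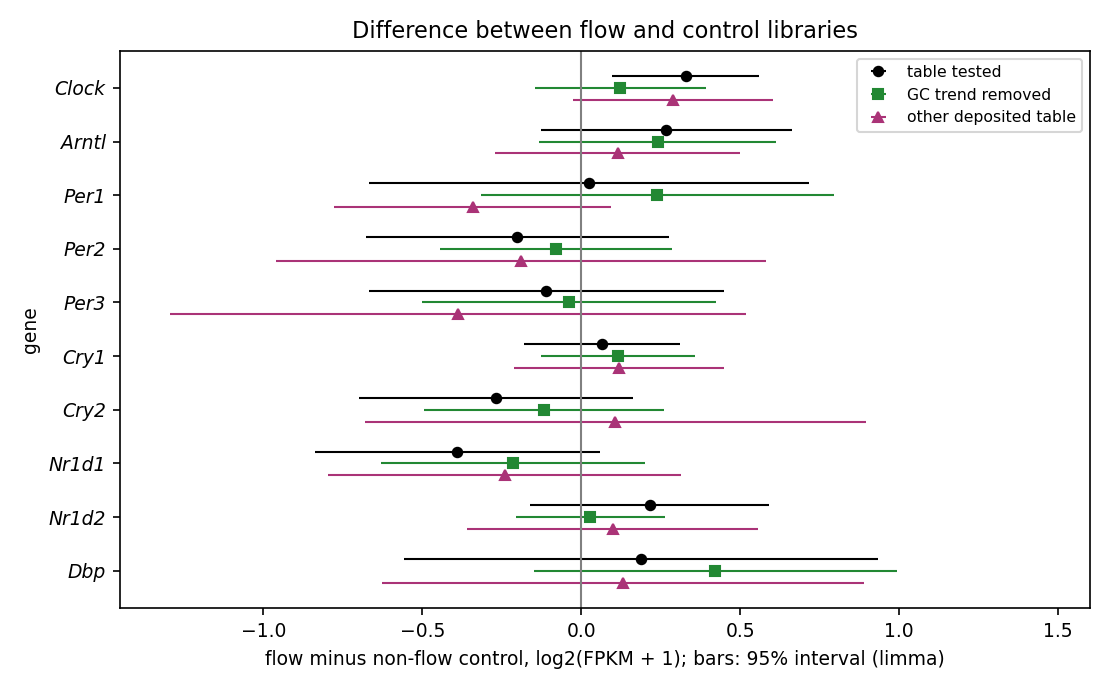
Difference of flow from control, in units of log2(FPKM + 1), with 95% intervals from limma, for each clock gene in the table tested, in that table after removal of the GC trend, and in the other deposited table. Only the interval of Clock in the table tested, 0.098 to 0.56, leaves out 0; after removal of the GC trend the value was 0.12.

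The base composition of a transcript moved with the difference between groups, and the members span the range. Among 10460 protein-coding genes, cut into 5 equal groups by GC content, the lowest group (up to 43.7%) had a median difference of 0.19, and the highest (55.4% and above) had -0.21. Clock (40.9% GC) and Nr1d2 (41.8%) lie in the first of these; Nr1d1 (56.8%), Cry2 (55.6%), Per1 (59.4%) and Dbp (61.6%) lie in the last. In the lowest group 16.8% of genes had flow values wholly above the controls, as Clock did, and in the highest 17.1% had them wholly below, as Nr1d1 did. The trend sat in flow libraries 1 and 2, the shallowest. Their median deviations in the lowest group were 0.18 and 0.22, against -0.11 in flow library 3 and -0.11 to -0.08 in the controls. With the trend removed from each library, the difference of Clock was 0.12 (95% interval -0.14 to 0.39), that of Nr1d1 -0.21 and that of Nr1d2 0.03. Then 0 of 10 members had groups without overlap, against 12.1% of protein-coding genes. Arntl, at 48.2% GC, then had 0.24, Per1 0.24 and Dbp 0.42. None of the 10 was called by limma (smallest adjusted p of a member 0.762), nor was any of the 10460 genes, 693 of which had an unadjusted p under 0.05.

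**Figure D3:**
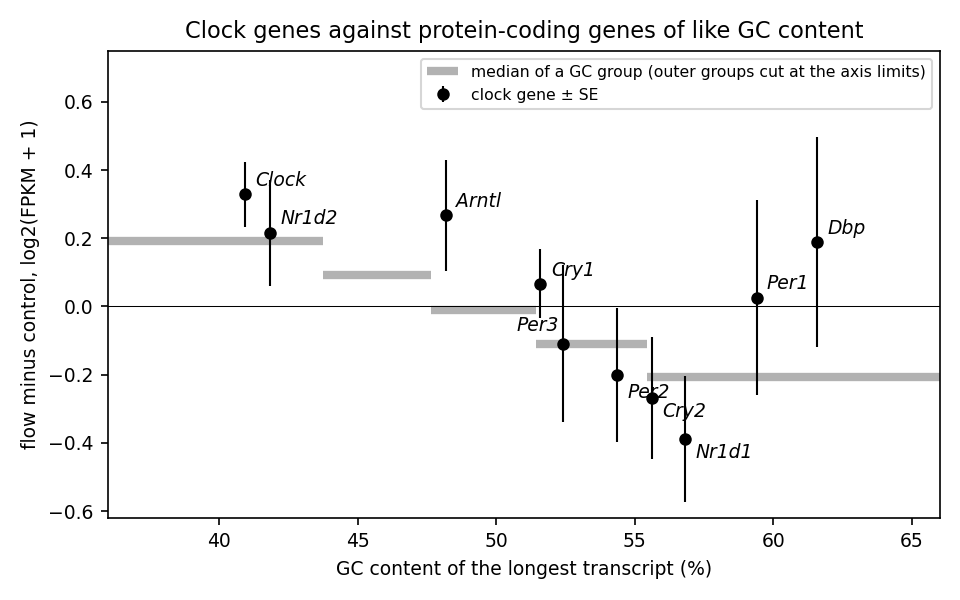
Difference between flow and control (log2(FPKM + 1), ± SE) of each clock gene against the GC content of its longest transcript; grey bars are the medians of protein-coding genes in 5 equal groups of GC content. The medians run from 0.19 in the lowest group to -0.21 in the highest, with Clock (0.33) and Nr1d2 (0.22) at the low-GC end and Cry2 (-0.27) and Nr1d1 (-0.39) at the high-GC end; Per1 (0.03) and Dbp (0.19), with the highest GC content of all members, lie above 0, against the trend.

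Overlapping genes set a further limit, since strand use in the counting is not given. On GENCODE M21 (mm10), Nr1d1 lies on chromosome 11 at 98767932 to 98775333 on the minus strand, and 8.55% of its exon bases are shared with Thra, the thyroid hormone receptor gene on the opposite strand. Thra ranged from 24.5 to 28.1 FPKM in the controls and from 12.5 to 23.6 under flow, also without overlap (difference -0.46, limma, adjusted p = 0.56). Dbp, on chromosome 7 at 45705088 to 45710203, shares 18.0% of its exon bases with Sphk2, a sphingosine kinase gene on the opposite strand, which ranged from 16.7 to 20.5 FPKM in the controls and from 10.0 to 18.4 under flow. Thra and Sphk2 were more abundant than the members they overlap. Reads assigned across strands were not tested. Cry2 shares 4.67% of its exon bases with D930015M05Rik, an RNA at 0.315 to 0.903 FPKM, and Arntl 0.439% with an antisense transcript. Clock, Per1, Per2, Per3, Cry1 and Nr1d2 share no exon bases. The table tested also gives 3 members a locus wider than the gene: Per3 947.3 kb against 41.0 kb in GENCODE, touching 5 other coding genes, Nr1d1 34.7 kb including Thra, and Dbp 15.7 kb including Sphk2 and Rpl18. In the other table these loci cover the gene alone, and what the wider loci did to the values was not tested.

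Cultures of the same group also differed from each other. Non-flow control 3 was the highest control in 8 of 10 members, all but Cry1 and Arntl, where 32.1% of all genes tested peaked among the controls. The other deposited table shared this only in part. There Per2, Cry1, Cry2, Nr1d1 and Dbp were highest in control 3. Clock, Arntl, Per1, Per3 and Nr1d2 were highest in control 1, the shallowest library of that table. Within flow, library 3 was the highest in 5 members, Nr1d1, Per1, Per2, Dbp and Cry2 (37.1% of all genes). Over the 6 libraries the profiles of Per2 and Cry2 were the closest pair of members, with a root mean square difference of 0.10 between their log2 deviations. Clock and Nr1d2 differed by 0.14, and Per1 and Nr1d2, the least alike, by 0.46.

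Control 3 and flow library 3 also stood apart in immediate early genes, which answer serum, cAMP and strain within the hour, as Per1 is known to do. Of 11 such genes tested, 10 were highest in control 3 among controls and 10 were highest in flow library 3 among flow libraries; Crem, a cAMP-responsive repressor, was the exception both times. Egr1, a zinc-finger factor, had 10.7, 8.20 and 218.2 FPKM in controls 1 to 3 and 7.19, 10.5 and 184.8 in flow libraries 1 to 3. Fos, an AP-1 subunit, had 0.409, 0.521 and 13.7 FPKM and then 0.776, 0.364 and 8.93. Per1 was also highest in library 3 of each group, with a far smaller span. Of all genes, 32.1% peaked there among controls and 37.1% among flow libraries. In the other deposited table control 3 was the lowest control for Per1 (8.19 FPKM), while Egr1 was again highest there (199.3 FPKM). By the size of p the named genes are Jun (-0.35), Ier2 (-0.40), Egr2 (-0.77) and Crem (0.23), none called (limma, adjusted p of 0.652 to 0.814). Over the list, 1 of 11 differences was positive, the median was -0.15, and 0 of 11 had groups without overlap. Over all genes tested, 48.3% were positive and 15.1% had groups without overlap. The part of immediate early genes in the spread of Per1 was not tested. Without both libraries numbered 3, a choice made after the data were seen, 0 of 10 members were called by limma, against 0.234% of all genes, and the difference of Per1 was -0.10, of Clock 0.41 and of Nr1d1 -0.25.

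**Figure D4:**
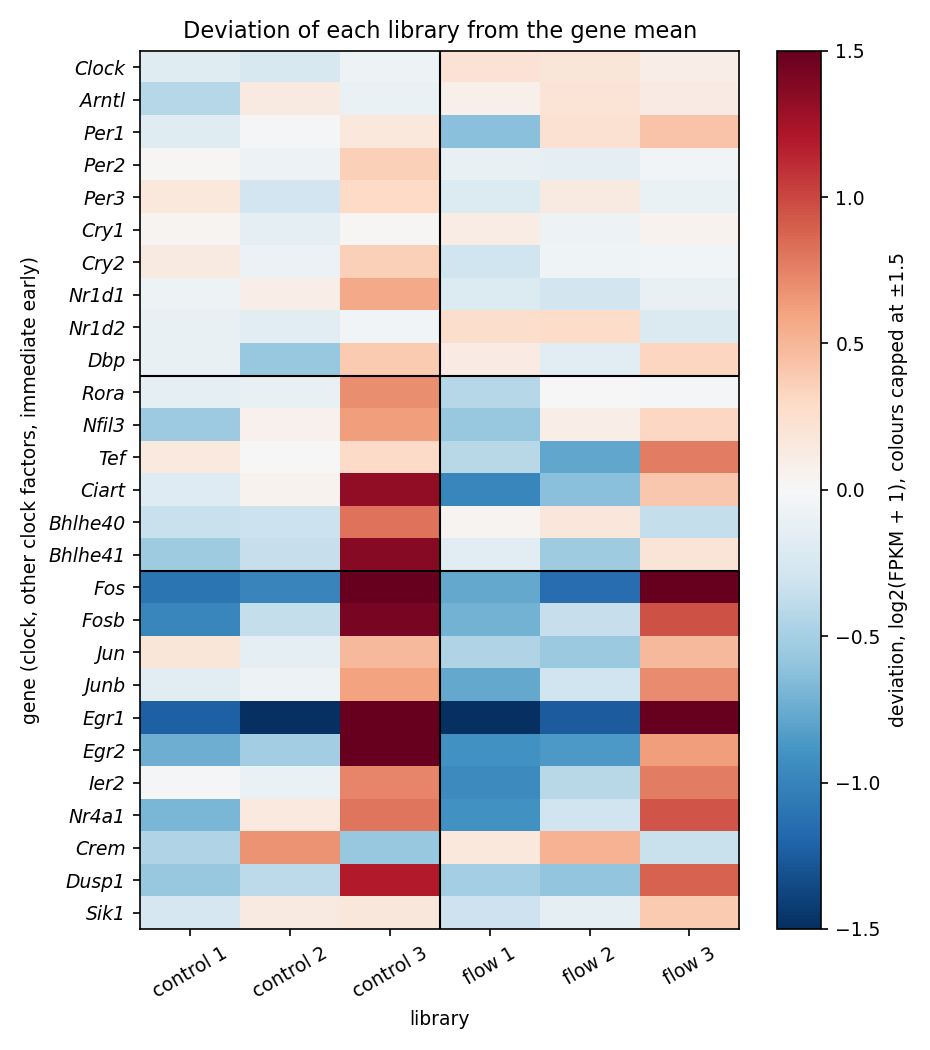
Deviation of each library from the gene's mean on the log2(FPKM + 1) scale for the 10 clock genes, 6 other clock factors and 11 immediate early genes; colours are capped at ±1.5. Immediate early genes other than Crem are high in control 3 and flow 3. In the table tested, which is the one drawn, 8 of 10 clock genes have their highest control in control 3.

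Other transcription factors of the clock were listed as 11 genes, of which 6 were tested. None was called, against 0.0167% of all genes. All 6 had a negative difference with a median of -0.30, where 48.3% of all genes had a positive one. In none did the groups separate, against 15.1% of all genes. All 6 had their highest control value in control 3, as did 32.1% of all genes. Ciart, a repressor of CLOCK and BMAL1, was at 17.7, 21.2 and 52.9 FPKM in the controls against 9.89, 12.9 and 27.4 under flow, a difference of -0.79 with SE 0.51 (limma, adjusted p = 0.593). Control 3 and flow library 3 were the highest of their groups. Tef, a relative of Dbp, had 15.5, 13.8 and 17.2 FPKM and then 10.1, 7.69 and 24.3, with the lowest and the highest value both in flow. Rora, the ROR activator of Arntl, was at 1.76, 1.82 and 3.92 FPKM in the controls against 1.24, 2.03 and 1.98 under flow. Bhlhe41, an E-box repressor, had 6.83, 7.94 and 28.2 FPKM and then 9.12, 6.84 and 11.99, and its relative Bhlhe40 had 22.5, 22.9 and 51.3 FPKM and then 29.6, 32.5 and 22.2. Both are also known as hypoxia-induced genes; Bnip3, another such gene, was highest among controls in control 3 as well (77.6 FPKM) but separated the groups, at 51.3 to 77.6 FPKM in controls and 12.1 to 20.1 in flow (limma, adjusted p = 0.413). Npas2, which can stand in for CLOCK, was listed at 0 in all 6 libraries. Arntl2, Rorb and Hlf stayed under the filter, with Hlf at 3.11 FPKM in flow library 2 and under 1 FPKM elsewhere.

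Enzymes and cofactors that act on clock proteins were 16, of which 15 were tested. None was called, 6 of 15 differences were positive, the median was -0.06, and 4 of 15 had groups without overlap, 2 in each direction, where 15.1% of all genes had none. Timeless, the mammalian relative of a fly clock gene that also serves DNA replication, was at 34.8, 37.7 and 40.4 FPKM in the controls against 28.4, 27.4 and 28.6 under flow. Its difference was -0.40 with SE 0.092, and it did not pass over all genes (limma, adjusted p = 0.559). Prkaa2, a catalytic subunit of AMPK, ranged from 0.804 to 0.966 FPKM in the controls and from 1.2 to 1.70 under flow (adjusted p = 0.583). Nono, a cofactor of PER proteins, had 146.6 to 149.0 FPKM and then 113.4 to 140.6 (adjusted p = 0.588). Csnk1e, a casein kinase that phosphorylates PER proteins, had 20.4 to 29.3 and 20.9 to 21.9 FPKM, with overlap.

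Clock-controlled output genes numbered 6, all tested, with none called, 6 negative differences and a median of -0.09, where 48.3% of all genes were positive. Por, the electron donor of cytochromes P450, was at 104.9, 97.9 and 135.5 FPKM in the controls against 57.0, 56.7 and 114.1 under flow, so that flow library 3 lay among the controls (difference -0.63, limma, adjusted p = 0.559). Tspo, Pparg and Klf10 had differences of -0.11, -0.15 and -0.07, each with overlapping groups. Glucocorticoid-responsive genes, listed because steroid hormones are known to reset peripheral clocks, had 5 of 6 members tested, none called, 4 positive and a median of 0.19. Klf9, a glucocorticoid-induced factor, ranged from 9.90 to 11.2 FPKM in the controls and from 10.7 to 15.3 under flow (adjusted p = 0.59). Tsc22d3 (0.19), Fkbp5 (0.11) and Sgk1 (0.25) also had overlapping groups.

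Genes most like 5 of the members were taken from 11947 others by the root mean square difference of log2 deviations over the 6 libraries, as a description of these libraries. Nearest to Nr1d1 were Gla, a lysosomal galactosidase (0.07), Mmachc, which processes vitamin B12 (0.08), and Bcl6, a transcriptional repressor (0.09). Within 0.1 lay 5 genes of Nr1d1, 3 of Dbp and 2 of Per1, against 96 of Per2 and 25 of Arntl. A fixed distance takes in more genes around a flatter profile, and the counts followed that order. The root mean square deviation of the member itself was 0.17 for Per2, 0.21 for Arntl, 0.28 for Nr1d1, 0.33 for Dbp and 0.34 for Per1. Nearest to Per1 were Stk40 (0.05), at 13.8, 17.02 and 20.05 FPKM in the controls against 10.8, 19.8 and 22.7 under flow, Mical3 (0.07) and Rassf2 (0.10). Nearest to Dbp were Rab3b (0.09), Sgk1 (0.09) and the processed pseudogene Gm15590 (0.10). Nearest to Arntl were Cabp1 (0.05), Epc1 (0.06) and Pecr (0.08), and nearest to Per2 were Pramef8 (0.05), Lrch3 (0.05) and Pxk (0.06).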

How the data were processed

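RNA of 6 MLO-Y4 cultures was sequenced as single-end reads. Per the submitters' processing notes, the tools were Cufflinks 2.2.1, TopHat2 2.0.9 and CASAVA 1.8.2, on mm10. Neither annotation nor strand use is given in the sources used here. The authors deposited 2 tables of FPKM with 1 column per library and no counts. The table the members are defined on was tested. In the other, 2 flow columns match no library title and were used as flow only, and 22 repeated gene rows were dropped in favour of the higher mean. In R 4.3.3, limma 3.58.1 (moderated variance with a mean trend, no further terms) was run on log2(FPKM + 1) for genes averaging 1 FPKM or more. Two-sided p-values were adjusted by Benjamini-Hochberg over all of them and called under 0.05. The fit was also run on simulated data with less noise than the real libraries and larger differences than those of the members. That run cannot show how well differences as small as the members' would be found here. An exact permutation test of 3 against 3 cannot go below 0.1, so none was run. Each p-value weighs a difference between groups against the spread among cultures within a group, moderated over all genes tested. Cultures within a group came from separate days. Depth came from FPKM multiplied by transcript length less 200 nt in genes with 1 transcript of over 800 nt; 3 reads on 1 kb equalled 0.156 to 0.521 FPKM. GC content and coordinates (1-based) are from GENCODE M21. The GC trend was a spline with 5 degrees of freedom per library. Ciart and Adgre1 stand under older symbols in the files and were matched by identifier. Named genes are all members, the up to 4 tested genes of each list with the smallest p, the 3 genes most like each of 5 members, and Bnip3; Fos, Egr1, Bhlhe40, Thra, Sphk2, D930015M05Rik and untested list genes were named after their values were seen. One untested gene of a list is not reported here. The members and lists were chosen with earlier results of these data known.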

Additional observations from a re-analysis of the deposited data

How the results depend on the processing

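In 18 alternative settings no clock gene was called (176 values, limma), and 10 of the values had the opposite sign. Clock (0.12 to 0.41), Arntl (0.11 to 0.40) and Cry1 (0.007 to 0.12) stayed positive in every setting that tested them. Nr1d1 (-0.53 to -0.21) and Per2 (-0.30 to -0.075) stayed negative. Most settings reuse the same 6 libraries, and Cry1 kept its sign with values near 0, so a steady sign says little. Of all genes, 2 were called in the main setting, 4 with a pseudocount of 0.1, 4 without the filter, 1 with the replicate block, 76 without flow libraries 1 and 2, 28 without both libraries numbered 3, 0 among protein-coding genes, 0 after GC correction and 3 to 14 without any 1 library. Members without overlap numbered 5 without flow libraries 1 and 2 (49.1% of all genes), 4 without both libraries numbered 3 (53.9%), 0 after GC correction and 2 to 6 without any 1 library: 6 without non-flow control 2 (23.9%) and 4 without flow library 3 (45.6%). Per1 was -0.34 in the other table, -0.10 without both libraries numbered 3, and -0.18 to 0.34 without any 1 library. Cry2 was 0.11 in the other table, Nr1d2 -0.11 without flow libraries 1 and 2, and Per3 0.034 without both libraries numbered 3. Without any 1 library Per3 was -0.28 to 0.013 and Dbp -0.049 to 0.43. The cause was not tested. The replicate block took adjacent titles as pairs, which no label states. Deviations of these pairs correlated at 0.04, 0.02 and 0.06, and those of the other pairings of a control with a flow library at -0.07 to 0.03. With the block, the difference of Clock had an adjusted p of 0.423 (limma). With flow library 3 as the only flow sample, it was assumed to vary like the controls. In the other table, depth was 690000 reads in control 1 and 3610000 to 4720000 in its other libraries. Dbp rested there on 1 to 11 reads per library.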
